A study of Mus musculus with 8 samples.

Results

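The RNF (RING finger) and TRIM (tripartite motif) genes are a large part of the ubiquitin ligases of the mouse. Their transcripts were followed here through an RNA immunoprecipitation (RIP) for DAZL, an RNA-binding protein of germ cells, in fetal gonads. The members were all non-control array probes whose gene name began with Rnf or Trim followed by a number, leaving out the 3 probes of Rnf138. This gave 223 probes for 112 genes, 122 probes for 60 Rnf genes and 101 probes for 52 Trim genes, out of 41101 probes on the array.

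A ubiquitin ligase brings a ubiquitin-charged E2 enzyme to a substrate, and the chain that is built sends the substrate to the proteasome or changes its activity or place in the cell. RNF proteins do this through a RING domain, alone or as a subunit of a larger complex, and TRIM proteins combine a RING with B-box and coiled-coil domains. DAZL binds sequences in the 3′ ends of mRNAs and is needed for germ cells of both sexes to develop, so a RIP asks which mRNAs travel with it.

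The samples were XX and XY gonads of E14.5 mouse embryos of strain MCH, with no transgene or mutation named in their labels. Each lot held 50 gonads. An anti-DAZL antibody was used for the precipitation (IP), after 5% of the lysate had been set aside as input. For labelling with Cy3, 50 ng of RNA was taken for an input and 1 ng for an IP, and 1-colour Agilent arrays were used. Each of the 4 groups (input and IP, XX and XY) had 2 arrays, 8 in all. The arrays hold no precipitation with a control antibody, so each recovery below is the IP relative to the input. The lots are whole gonads, in which germ cells are mixed with somatic cells. Fewer cells of a type and less RNA per cell cannot be told apart in them.

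A level below is the log2 signal relative to the 75th percentile of its array, and a recovery is the mean level of the IP minus that of the input, with the standard error (SE) of the fit. The IP arrays were dimmer. Between 6068 and 9468 probes were well above background on each IP array, against 16713 to 20391 on each input array. The lowest level well above background was 0.03 to 1.02 on the IP arrays and -3.59 to -2.34 on the input arrays. A transcript that was low in the input could therefore be measured in the IP only if much of it was recovered. All XX arrays lay on 1 slide and all XY arrays on another, so between XX and XY the slide and the sex cannot be told apart, while an IP and its input always shared a slide. The labels do not say that the 2 samples of a group came from separate lots, so p-values measure the spread between these samples.

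The cell types in the lots were checked by markers. Germ cell markers had a summed level, as linear signal relative to the 75th percentile, of 184 to 202 in the XX inputs and 281 to 351 in the XY inputs. Dazl itself (probe A_52_P271166) was recovered with a log2 difference of 2.69 in XX and 2.06 in XY. Of 13 germ cell marker probes, 7 (53.8%) were enriched and 1 (7.69%) depleted in the XX IP, and 6 (46.2%) were enriched and 0 depleted in the XY IP. Over all tested probes, 14.0% were enriched and 9.91% depleted in XX, and 10.2% and 7.68% in XY. At an unadjusted p under 0.05 and no fold minimum (limma), 9 germ cell marker probes were higher and 2 lower in XX, and 7 higher and 3 lower in XY. Their summed level was 645 to 697 in the XX IPs and 829 to 1247 in the XY IPs. Among 9 probes for stroma and mesonephros markers, 0 were enriched and 4 depleted in XX, and 0 were enriched and 2 depleted in XY, with a summed level of 160 to 212 in the XX inputs and 34.7 to 76.7 in the XX IPs, and 243 to 269 in the XY inputs and 53.4 to 100.2 in the XY IPs. Of 10 erythroid marker probes 4 were depleted in XX and 3 in XY, of 4 endothelial ones 3 and 0, and of 3 ovarian support cell ones 3 in XX, while 1 of these 3 was enriched in XY. Sertoli cell markers summed to 3.21 to 3.32 in the XX inputs and 61.7 to 67.1 in the XY inputs, and of their 7 probes 1 was enriched in XX and 2 depleted in XY. Leydig cell markers summed to 2.70 to 3.82 in the XX inputs and 118 to 121 in the XY inputs, and of their 8 probes 3 were enriched in XX and 4 depleted in XY. None of these Sertoli and Leydig probes was above background on both XX IP arrays. The part of the germ cell share in the recoveries below was not tested.

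Most members were seen in the inputs and fewer in the IPs. In the XX inputs 113 member probes were above background on both arrays, and in the XX IPs 46. In the XY inputs there were 121, and in the XY IPs 41. Testing required both arrays of some group to be above background, which held for 127 member probes of 85 genes. The other 27 genes, among them Trim10, Trim17, Trim42, Trim60 and Trim69, had no such probe. Of the 127 tested, 56 were seen on all 4 inputs without being seen on both IP arrays of a sex, and 34 (27 genes) were above background on all 8 arrays.

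In XX gonads, many member transcripts were recovered with DAZL and few were depleted. A probe was called at an adjusted p under 0.05 (limma, Benjamini-Hochberg over 18265 probes) where it had also changed 4-fold or more. Of the 127 tested probes, 34 (26.8%) of 25 genes were enriched, against 14.0% of all tested probes, and 4 (3.15%) were depleted, against 9.91%. The median recovery was 0.51 for the members and 0.09 for all tested probes. For 6 of these 34 neither IP array was above background, so a recovery was not measured for them. Among the 46 member probes above background on all 4 XX arrays, 23 of 17 genes were enriched and 1 was depleted. Of the 5567 such probes on the array, 26.5% were enriched and 7.15% depleted. The median recovery was 1.98 over the 46 members and 0.77 over the 5567 probes.

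The pattern in XY gonads was of the same kind. Of the 127 probes, 27 (21.3%) of 19 genes were enriched, against 10.2% of all tested probes, and 1 (0.787%) was depleted, against 7.68%. Over these 127 the median recovery was 0.41, and over all tested probes -0.03. Among the 41 member probes above background on all 4 XY arrays, 21 of 13 genes were enriched and 0 depleted. Without the fold minimum, 1 of the 41, a Trim47 probe, was lower (limma, adjusted p under 0.05). Of the 5481 such probes on the array, 19.5% were enriched and 5.82% depleted. The median recovery was 2.14 over the 41 members and 0.33 over the 5481 probes. How many probes pass the 4-fold limit depends on how the dim IP arrays are scaled. Scaling by the 50th percentile in place of the 75th, which moved the median of all tested probes to -1.92 in XX and -1.90 in XY, gave 5 enriched (3.94%, against 1.03% of all tested probes) and 40 depleted member probes (31.5%, against 47.3%) in XX, and 7 (5.51%, against 1.2%) and 45 (35.4%, against 45.9%) in XY. After normexp background correction with an offset, which compresses the dim IP arrays, 2 member probes were enriched in XX (1.57%) and 1 in XY (0.787%), against 0.378% of all tested probes in either sex. The distance between the members' median and that of all probes above background on the 4 arrays was 1.22 in XX and 1.81 in XY. A percentile scaling shifts all probes of an array alike and cannot change it. It was 1.19 and 1.55 after quantile normalization, and 0.99 and 1.02 after normexp background correction.

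**Figure D1:**
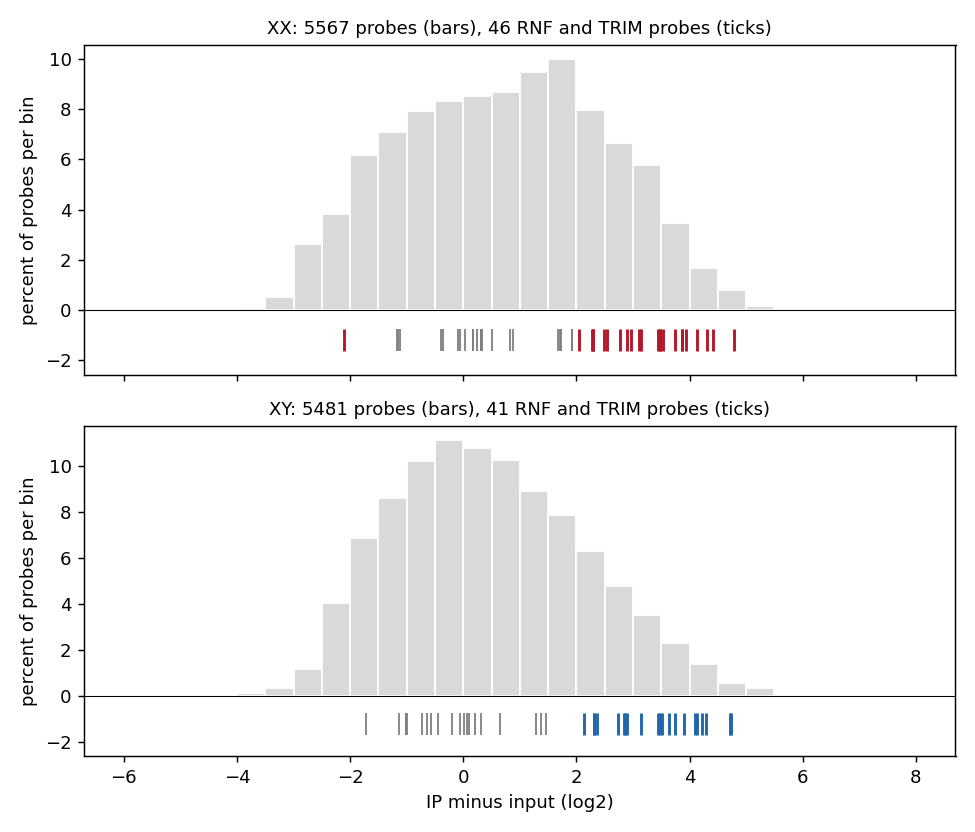
The recovery (IP minus input, log2, x axis) of all probes above background on the 4 arrays of a sex is shown as bars, in percent of probes per bin (y axis). Ticks under the bars are the member probes, coloured where called, and in XX 23 of 46 and in XY 21 of 41 lie in the enriched range at the right.

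The member with the largest recovery in XX by the naming rule was Rnf7 (probe A_51_P414166, mm8 chromosome 9, 96280309 to 96280326). It encodes the RING subunit that joins cullin scaffolds to E2 enzymes. Its level was 4.87 and 5.06 in the XX inputs and 8.94 and 9.84 in the XX IPs. In XY it was 4.95 and 5.09 in the inputs and 8.71 and 9.53 in the IPs. Both IPs lay far above both inputs in each sex, by 21.4-fold in XX (log2 4.42, SE 0.45, adjusted p = 7.31e-05, limma) and 17.1-fold in XY (4.10, SE 0.45, adjusted p = 9.06e-05). The other tested probe of Rnf7 rose too, by 3.48 in XX and 3.63 in XY.

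Rnf11 (A_51_P268117, chromosome 4, 108951086 to 108951145), a small RING protein that works with HECT ligases, had nearly the same recovery in the sexes. Its level was 1.37 and 1.42 in the XX inputs and 5.31 and 6.11 in the XX IPs. In XY the inputs were at 1.30 and 1.51 and the IPs at 5.45 and 5.94. The rises of 4.31 in XX and 4.29 in XY (SE 0.42 each, adjusted p = 6.55e-05 and 5.18e-05, limma) differed by 0.02, with a 95% interval of -1.27 to 1.32.

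Rnf2 encodes the catalytic RING of Polycomb repressive complex 1, which ubiquitinates histone H2A. Its probe A_51_P382253 (chromosome 1, 153232075 to 153232134) was at 3.15 and 3.28 in the XX inputs and at 7.11 and 7.59 in the XX IPs. In XY it was at 2.78 and 2.90 in the inputs and at 4.81 and 5.49 in the IPs. The XX IPs lay above both XY IPs by more than the XX inputs lay above the XY inputs. The recovery was 4.13 in XX (adjusted p = 7.01e-05, limma) and 2.31 in XY (adjusted p = 0.00135), where it fell under the fold limit at 1.97 without the second XY IP array. The difference of 1.82 (95% interval 0.56 to 3.09) did not pass the test between the sexes (adjusted p = 0.119).

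Rnf4 showed a like split. It encodes a SUMO-targeted ligase of the nucleus. The probe A_51_P215540 (chromosome 5, 34669690 to 34669749) was at 3.44 and 3.48 in the XX inputs and at 6.61 and 7.28 in the XX IPs, and at 2.17 and 2.19 in the XY inputs and 2.91 and 4.18 in the XY IPs. The recovery was 3.48 in XX (adjusted p = 0.000222, limma) and 1.37 in XY (adjusted p = 0.0368, under the 4-fold limit). The difference of 2.11 (95% interval 0.65 to 3.57) had an adjusted p of 0.117. A second Rnf4 probe above background on the XX arrays (A_52_P189567) had a recovery of only 0.31 in XX.

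Rnf141, a RING gene known from the testis, had 3 probes above background on all 8 arrays and all were enriched in both sexes. By the probe with the highest mean (A_51_P498257, chromosome 7, 110605099 to 110605158) the level was 2.14 and 2.27 in the XX inputs and 5.79 and 6.50 in the XX IPs. In XY it was 1.07 and 1.48 in the inputs and 4.47 and 5.12 in the IPs. The rise was 15.3-fold in XX and 11.4-fold in XY. The fourth tested probe (A_52_P560797) had recoveries of 1.23 and 0.84, which were not called, and it was seen on 1 XX IP array and on neither XY IP array.

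Rnf149, a membrane-anchored RING ligase, was among the brightest members in the IPs. Its probe A_51_P186161 (chromosome 1, 39495877 to 39495936) was at 5.35 and 5.55 in the XX inputs and 8.89 and 9.74 in the XX IPs, and at 4.55 and 4.67 in the XY inputs and 7.98 and 8.73 in the XY IPs. It rose by 3.86 in XX and 3.75 in XY, and its other probe was called in both sexes too.

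Trim6 was among the genes with RT-qPCR primers in the study. It is a TRIM gene of a cluster on chromosome 7 and is known from antiviral signalling. Its brightest probe (A_52_P199019, 104108381 to 104108440) was at -1.52 and -1.79 in the XX inputs and 1.24 and 2.54 in the XX IPs, and at -0.01 and 0.16 in the XY inputs and 4.07 and 4.50 in the XY IPs. The IPs lay above the inputs in both sexes, and XY lay above XX in both fractions. The recovery was 3.54 in XX (11.6-fold, SE 0.47, adjusted p = 0.000202, limma) and 4.22 in XY (18.6-fold, adjusted p = 9.95e-05). The recoveries differed by -0.68 (95% interval -2.13 to 0.77, adjusted p = 0.69), while the inputs differed by -1.72 (adjusted p = 0.0329). The input call was lost when any 1 input array was left out, where the difference was -1.86 to -1.59.

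The other tested Trim6 probes lie a little upstream. Probe A_52_P199024 was above background on neither XX input and on 1 XX IP array, so no fold is given for XX. In XY it rose 26.2-fold (log2 4.71). Probe A_52_P199023 was above background on no XX array and gives no fold there, while in XY it rose 17.5-fold. The 2 remaining Trim6 probes, which start at 104101969 and 104101981, farther upstream, were above background on none of the 8 arrays. No fold can be given for them. Next to Trim6, the 7 probes for Trim34, Trim12 and Trim30 were too dim to be tested. Trim21, a cytosolic antibody receptor encoded farther off on the same chromosome (A_52_P640484, 102431904 to 102431963), was enriched in XY, from -0.59 and -0.68 in the inputs to 1.93 and 2.51 in the IPs (7.23-fold). In XX it had a recovery of 0.94 (adjusted p = 0.108), with 1 of 2 IP arrays above background, and the difference between the sexes had an adjusted p of 0.149.

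Several more named members rose in both sexes. Rnf44 rose by 3.44 in XX and 3.48 in XY. Trim37, a ligase of centrosomes and peroxisomes, rose by 3.14 and 2.89, and Rnf32 by 2.97 and 3.14. Rnf182, a membrane-anchored ligase, was called in both but had the largest recovery of the rule in XY. Its level was -0.15 and 0.05 in the XX inputs and 1.97 and 3.48 in the XX IPs, and -1.21 and -1.21 in the XY inputs and 3.07 and 3.97 in the XY IPs. The rises of 2.78 and 4.73 differed by -1.95 (95% interval -3.55 to -0.35, adjusted p = 0.195). Rnf6, a nuclear RING ligase, rose by 2.36 in XY and by 2.29 in XX.

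**Figure D2:**
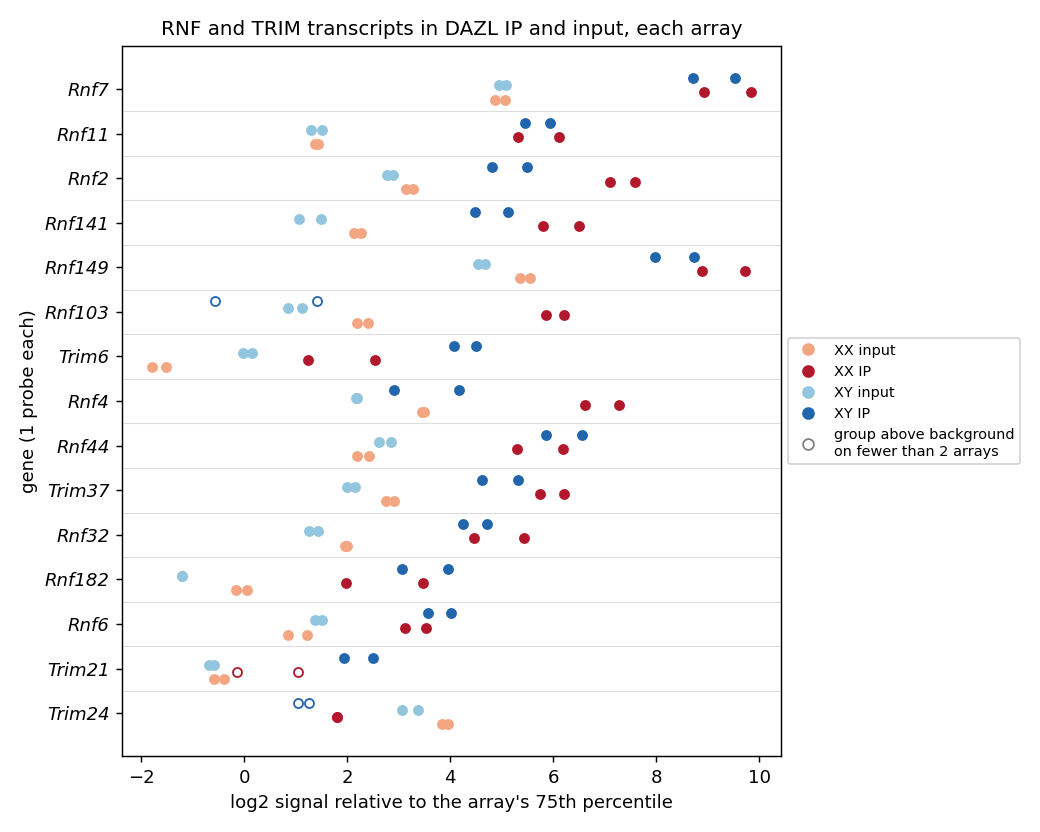
The level of each named member on each array (log2 signal relative to the array's 75th percentile, x axis) is shown by gene (y axis, 1 probe per gene) for the 4 groups of 2 arrays, with open circles where fewer than 2 arrays of the group were above background. Both IP points of a sex lie to the right of its inputs for Rnf7, Rnf11 and Rnf141, to the left for Trim24, and for Rnf103 they do so in XX but not in XY.

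Trim24 went the other way. It encodes a TIF1 protein, a reader of histone marks that works with nuclear receptors. Probe A_51_P152845 (chromosome 6, 37895710 to 37895769) was at 3.84 and 3.97 in the XX inputs and at 1.80 and 1.80 in the XX IPs, which is a fall of 2.11 on the log2 scale (adjusted p = 0.00101, limma). In XY the inputs were at 3.06 and 3.37 and the IPs at 1.04 and 1.26, with 1 of 2 IP arrays above background. No other member was called depleted in XY, and the Trim24 call there fell under the fold limit after quantile normalization (-1.96), without the second XY input (-1.91) and without the first XY IP array (-1.96). The 3 other members called depleted in XX were measured only on the input side or on 1 IP array. Rnf43, a ligase that removes Wnt receptors, was above background on neither XX IP array and was at least 2.32-fold lower there. Trim8 was above background on 1 XX IP array. A Trim41 probe (A_52_P479899) was above background on neither, whereas the other Trim41 probe had a recovery of 1.91.

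The members were also placed among all probes above background on the 4 arrays of a sex. A percentile scaling cannot move a place, so the ranges given are over the main values, quantile normalization and normexp. In XX, Rnf7 lay at the 98.9th percentile of 5567 probes (98.9 to 99.4). Rnf11 lay at 98.6 (98.6 to 98.8), Rnf2 at 98.0 (98.0 to 98.6), Rnf103 at 95.9 (95.9 to 97.9) and Trim6 at 94.3 (92.4 to 94.3). Rnf141 lay at 99.6 (99.4 to 99.6) by its probe A_51_P275845, above Rnf7 except under normexp. In XY, Rnf182 lay at 99.3 (98.4 to 99.5) of 5481 probes, the Trim6 probe A_52_P199024 at 99.2 (98.1 to 99.2) and Rnf11 at 98.4. Rnf2 moved from 98.0 in XX to 84.6 in XY. At the other end, Trim24 lay at 6.23 in XX (6.23 to 10.9), Rnf130 at 18.0 in XX and 21.1 in XY, and below it in XY lay Trim47 at 9.45 and Trim28 at 18.9 (18.9 to 28.5).

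The sexes were then set side by side over the 34 member probes above background on all 8 arrays. Of these, 20 were enriched in XX (58.8%, against 24.7% of the 4206 such probes), 18 in XY (52.9%, against 20%), and 18 probes of 12 genes in both (52.9%, against 15.7%). Pearson's r between the recoveries across the 34 probes was 0.920 and Spearman's rho 0.887. The probes share arrays and scaling, several share a gene, and none is an independent replicate. Over all 127 probes, 23 (18.1%) were enriched in both sexes, 11 (8.66%) in XX alone and 4 (3.15%) in XY alone, against 5.78%, 8.27% and 4.41% of all tested probes, which does not show that the sexes differ.

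**Figure D3:**
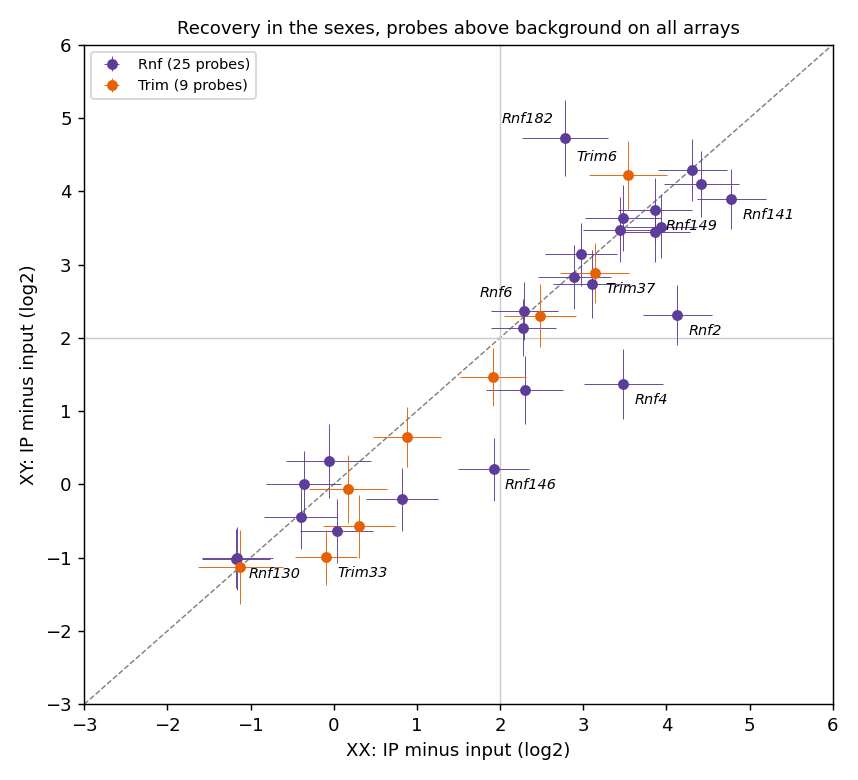
Each point is 1 of the 34 member probes above background on all 8 arrays, with the recovery in XX on the x axis and in XY on the y axis (log2, bars are SE). Grey lines mark the 4-fold limit and the dashed line equal recovery. Most points follow the dashed line, and Rnf2, Rnf4, Rnf146 and Rnf182 lie off it, none past the test between the sexes.

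The difference in recovery between the sexes was tested for each probe. It was called, at an adjusted p under 0.05 with no fold minimum, for 3 of 127 member probes higher in XX (2.36%, against 2.18% of all tested probes) and 1 higher in XY (0.787%, against 1.12%). Of the 34 probes above background on all 8 arrays, 0 were called (limma), against 1.05% higher in XX and 0.238% higher in XY of all such probes, while 22 of the 127 (17.3%, against 16.4% of all tested probes) had an unadjusted p under 0.05. The member shares are near those of all probes. These counts are unstable. The 3 higher in XX became 0 without the first XX IP array (1.19% of all probes), 6 without the second (4.62%, against 6.04%), 1 without either XY input and 10 without the second XY IP array (7.63%, against 5.49%), where the 1 higher in XY became 6 (4.58%, against 4.41%). A replicate block gave 9 (7.09%, against 5.27%) and 3 (2.36%, against 2.79%).

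Rnf103 had the largest difference. It encodes a ligase of the endoplasmic reticulum membrane. Probe A_51_P383320 (chromosome 6, 71439970 to 71440029) was at 2.19 and 2.41 in the XX inputs and 5.86 and 6.21 in the XX IPs. In XY the inputs were at 0.85 and 1.13 and the IPs at -0.57 and 1.42, of which only the second was above background. Thus the XX IPs lay well above their inputs, and the XY IPs lay on either side of theirs. The recovery was 3.74 in XX (13.4-fold, adjusted p = 0.000349, limma) and -0.56 in XY (adjusted p = 0.444), a difference of 4.31 (SE 0.79, adjusted p = 0.0162). Leaving out 1 array at a time gave 3.31 to 5.30, and the call was lost without the first XX IP array. It was also lost after quantile normalization (4.26), under the 50th percentile (4.16) and with no filter, and was kept at 2.26 after normexp.

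Trim59 also differed. Its probe A_51_P275808 was at 0.51 and 0.66 in the XX inputs and 3.00 and 3.26 in the XX IPs, and at 0.79 and 0.94 in the XY inputs and 0.20 and 1.34 in the XY IPs, of which 1 was above background. The difference of 2.64 had an adjusted p of 0.0417, and it stayed called in 1 of the 8 fits that left out an array. Rnf125 and Trim66 were the other members called, and neither has a measured recovery on both sides. Rnf125, known from the control of antiviral signalling, was above background only in the XY inputs, and Trim66 only in the XX inputs. Their differences of 2.94 and -3.64 come from inputs below background set against IP arrays whose dimmest levels are higher.

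The members were also grouped by the role of the protein. The lists are small, and no list was compared with another or with all probes by a test. Over all tested probes, 14.0% were enriched and 9.91% depleted in XX, and 10.2% and 7.68% in XY. Among membrane-anchored ligases of the endoplasmic reticulum, endosomes and cell surface (26 probes of 15 genes), 5 probes (19.2%) were enriched and 1 (3.85%) depleted in XX, and 3 (11.5%) and 0 in XY. The shares of enriched probes are near those of all probes, and those of depleted probes are lower. Rnf149 and Rnf182 were enriched in both sexes and Rnf103 in XX. At an unadjusted p under 0.05 and no fold minimum, 8 probes were higher and 5 lower in XX, and 5 higher and 6 lower in XY. Over all tested probes such shares were 29.4% and 26.5% in XX and 24.3% and 25.4% in XY. Rnf130, the gene of this list with the second highest mean level, had recoveries of -1.16 in XX (adjusted p = 0.0417, limma, under the fold limit) and -1.01 in XY (adjusted p = 0.0788), and a second probe that overlaps the first gave -1.18 and -1.01. The list's median was 0.50 in XX and -0.09 in XY.

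Chromatin and DNA damage ligases and the TIF1 proteins (16 probes of 11 genes) had 3 enriched (18.8%) and 1 depleted probe (6.25%) in each sex. At an unadjusted p under 0.05, 5 were higher and 4 lower in XX, and 4 higher and 5 lower in XY. Those enriched in XX were the 2 Rnf2 probes and Rnf4. In XY an Rnf2 probe was enriched, and the calls for Rnf20 and Trim66 rest on arrays below background. The list's median was 0.18 in XX and -0.42 in XY. Among TIF1 family members, the recovery was -2.11 in XX for Trim24, -1.12 for Trim28 (adjusted p = 0.0872, limma) and -0.09 for Trim33 (adjusted p = 0.856). In XY it was -1.13 for Trim28 (adjusted p = 0.0965, limma) and also below 0 for Trim33 (adjusted p = 0.0503).

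Members known from germ cells, testis or meiosis (10 probes of 5 genes) had 5 enriched and 0 depleted probes in XX (50%) and 4 and 0 in XY (40%), with medians of 2.08 and 1.66. In each sex 3 of the enriched probes were of 1 gene, Rnf141. At an unadjusted p under 0.05 (limma), 7 were higher and 1 lower in XX, and 6 higher and 0 lower in XY. The enriched probes above background on all 4 arrays of the sex belonged to Rnf141 in both sexes and to Rnf4 in XX. Rnf8, a ligase of the DNA damage response, had a recovery of 0.42 in XX, with 1 IP array above background, and was above background on neither XY IP array. Rnf17, a germ cell Tudor protein gene, was above background in none of the IPs. These genes were listed for what is known of them, and the list shares Rnf4 and Rnf8 with the chromatin list.

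Ligases of antiviral and inflammatory signalling (13 probes of 9 genes) had 5 enriched and 0 depleted probes in XX (38.5%) and 4 and 0 in XY (30.8%). At an unadjusted p under 0.05 (limma), 6 were higher and 1 lower in each sex. In XX, 1 of the 5 enriched probes, a Trim6 probe, was above background on all 4 arrays. In XY these enriched probes were the 3 Trim6 probes and Trim21. Trim25, which activates an RNA sensor, was at 2.72 and 2.56 in the XY inputs and 1.08 and 2.74 in the XY IPs, a recovery of -0.73 (adjusted p = 0.313, limma) that was 0.09 without the first XY IP array. Rnf31, the catalytic subunit of the linear ubiquitin chain complex, was above background on neither XY IP array.

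Regulators of Wnt, growth factor and hormone signalling (11 probes of 8 genes) had 2 enriched (18.2%) and 1 depleted probe in XX and 1 (9.09%) and 0 in XY, shares of enriched probes near those of all probes. At an unadjusted p under 0.05 and no fold minimum (limma), 6 were higher and 1 lower in XX, and 5 higher and 1 lower in XY. Over all tested probes 29.4% were higher in XX and 24.3% in XY. The list's median was 1.36 in XX and 0.21 in XY, against 0.09 and -0.03 for all tested probes. Rnf11 was enriched in both sexes. Rnf34, an apoptosis and p53 regulator, rose by 2.30 in XX, which fell under the fold limit at 1.94 without the second XX IP array, and had a recovery of 1.29 in XY, which was under the fold limit. Rnf146, which degrades axin, had a recovery of 1.92 in XX (adjusted p = 0.00353, limma, under the fold limit) and 0.21 in XY (adjusted p = 0.727).

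RING-between-RING ligases (6 probes of 4 genes) had 0 enriched and 0 depleted probes in either sex (limma). The 2 genes of highest mean were Rnf14, with a recovery of 0.82 in XX and -0.20 in XY, and Rnf19a, with 0.51 in XX. At an unadjusted p under 0.05, 1 probe of the list was higher and 1 lower in XX, and 0 were higher and 2 lower in XY. TRIM proteins with an NHL domain (5 probes of 3 genes) had 1 enriched probe in XX, a Trim3 probe above background on 1 XX IP array, and 0 in XY. At an unadjusted p under 0.05, 1 was higher and 1 lower in XX and 0 either way in XY (limma). Trim32 had recoveries of 0.88 and 0.65, which were not called. Microtubule-bound TRIM proteins (3 probes) and those of striated muscle (2 probes) had no probe seen on both IP arrays of a sex, so the rises the fit gives for Trim36, Trim46 and Trim63 were not measured on both sides.

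**Figure D4:**
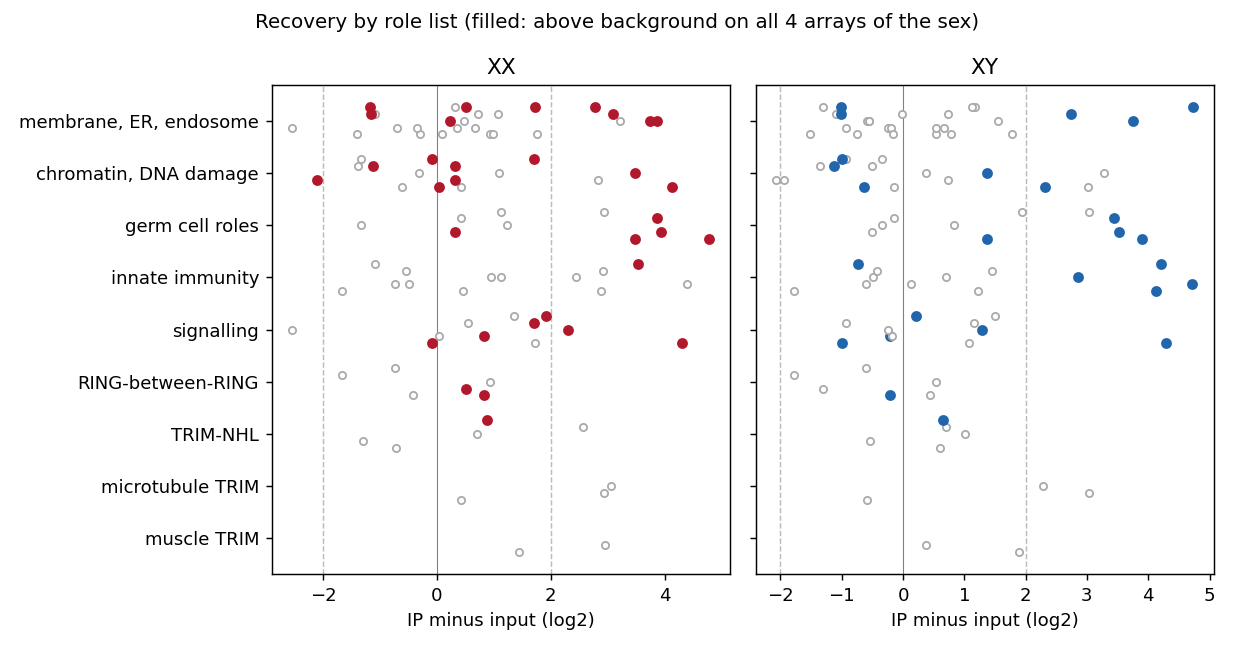
Each point is a tested member probe, placed by its recovery (IP minus input, log2, x axis) in its role list (y axis), for XX at the left and XY at the right. Filled points were above background on all 4 arrays of the sex, open ones were not, and dashed lines mark the 4-fold limits.

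The other components of the ubiquitin system were taken from lists of E1 and E2 enzymes with ubiquitin itself, cullin-RING subunits and HECT ligases. Of 82 probes for ubiquitin, E1 and E2 genes, 23 (28%) were enriched and 4 (4.88%) depleted in XX, and 17 (20.7%) and 3 (3.66%) in XY, and at an unadjusted p under 0.05 40 were higher and 14 lower in XX and 28 higher and 14 lower in XY. The brightest, Rps27a, a ubiquitin and ribosomal protein fusion, had a recovery of -1.60 in XX and -1.01 in XY. Of 30 cullin-RING probes, 4 (13.3%) were enriched and 1 depleted in XX and 5 (16.7%) and 0 in XY, with 13 higher and 5 lower in XX and 8 higher and 4 lower in XY at an unadjusted p under 0.05. The XX share is near that of all probes. Rbx1, the paralogue of Rnf7 and the other RING subunit of cullin complexes, rose by 2.89 in XY and had a recovery of 1.50 in XX (adjusted p = 0.0149, limma, under the fold limit), while another Rbx1 probe rose in both, by 2.73 in XX and 3.20 in XY. Of 38 HECT probes, 6 (15.8%) were enriched in XX and 5 (13.2%) in XY, near the shares of all probes, and 0 were depleted in either, with 15 higher and 5 lower in XX and 15 higher and 2 lower in XY at an unadjusted p under 0.05 (limma). Trip12, the brightest of these, had recoveries of 0.39 and 0.47.

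The inputs were compared to see which members differed in level between the gonads before the IP. Without a fold minimum, 13 member probes of 11 genes were higher in XX (10.2%, against 5.87% of all tested probes) and 8 of 7 genes higher in XY (6.3%, against 6.1%). Of the 107 member probes above background on all 4 input arrays, 9 were higher in XX and 3 in XY, against 3.81% and 3.11% of all such probes. These calls depended on single arrays. With any 1 input array left out, which leaves 1 array in a group, fewer member probes were higher in XX and in XY. The members' share higher in XX was then near that of all probes tested in the fit. Leaving out an IP array, which takes no part in the difference itself, gave up to 20 (15.6%, against 8.67% of all probes tested in that fit) and 12 (9.38%, against 8.15%), and the 4 input arrays fitted alone gave 45 (35.4%, against 22.6%) and 19 (15%, against 21.5%).

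Rnf43, which is a Wnt target gene as well as a regulator, was higher in XX. Probe A_51_P337101 was at 1.75 and 1.99 in the XX inputs and -1.38 and -1.01 in the XY inputs, an 8.36-fold difference (log2 3.06, SE 0.42, adjusted p = 0.000539, limma). Trim66 was at least 4.85-fold higher in XX, since it was above background in neither XY input, and Rnf17 at least 2.40-fold. Rnf128, Rnf141 (A_51_P275845), Rnf4 (A_52_P189567), a Trim41 probe and Rnf20 were higher in XX by 2.26, 2.15, 1.93, 1.90 and 1.70. Of the other tested Rnf141 probes, A_52_P560797 was called too, at 2.23. The brighter A_51_P498257 and A_52_P674694 were higher by only 0.93 and 0.98 and were not called.

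Trim47 was higher in XY. Probe A_51_P437176 (chromosome 11, 115921903 to 115921962) was at 0.41 and 0.91 in the XX inputs and 4.09 and 4.31 in the XY inputs, which was 11.6-fold (log2 -3.53 for XX minus XY, adjusted p = 0.000229, limma). In the XY IPs it was at 2.02 and 2.94, a recovery of -1.72, under the fold limit. Trim61, Rnf125 and Trim63 were above background in neither XX input and were at least 4.36-fold, 3.68-fold and 1.97-fold higher in XY. Rnf180 and Trim13 were higher in XY by 1.92 and 1.56 (log2 -1.92 and -1.56 for XX minus XY), though Rnf180 was above background on 1 of the 2 XX inputs. Sertoli and Leydig cell markers also differed in the inputs, with 6 of 7 and 8 of 8 probes higher in XY. Of 3 ovarian support cell probes 2 were higher in XX, and of 13 germ cell marker probes 6 were higher in XY and 2 in XX. The part of these cells in the member differences was not tested.

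Probes of the same gene did not always give the same recovery. Of 30 genes with 2 or more tested probes, 6 in XX and 5 in XY had every tested probe enriched. In 6 genes in each sex only some were, and in 8 genes in XX and 15 in XY the fitted values differed in sign, in every case through a probe not above background on all 4 arrays of the sex. Among genes with 2 or more probes measured in both fractions of a sex, apart from Rnf130 whose probes overlap, the probe farthest downstream had the higher recovery than the one farthest upstream in 6 of 7 genes in XX and 4 of 6 in XY. The downstream probe was also the brighter one on the input arrays in 7 of 7 and 6 of 6, and the part of probe brightness in this order was not tested. Rnf4 had the widest gap, with 3.48 at the downstream probe and 0.31 at a probe 2004 bases upstream. In Rnf141 the upstream probe was the higher in both sexes, and in Trim6 in XY. Under normexp the order turned for Rnf141 in XY (1.38 downstream, 1.31 upstream). It also turned for Rnf32 in XX (0.82 downstream, 1.05 upstream) and in XY (0.95 and 0.97). No genome annotation of the mm8 build was used here, so whether a probe lies in a coding or untranslated part is not given.

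**Figure D5:**
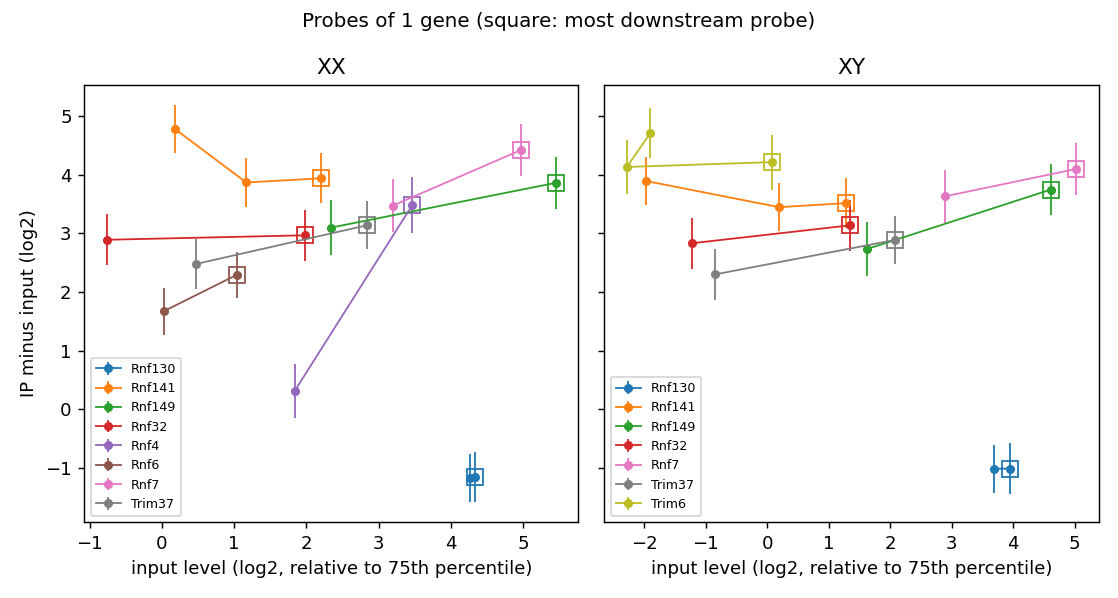
For genes with 2 or more probes above background on all 4 arrays of the sex, the recovery of each probe (y axis, log2, bars are SE) is plotted against its input level (x axis, log2), with lines joining probes of 1 gene from downstream (square) to upstream. Rnf4 falls steeply from 3.48 to 0.31 in XX, whereas both Rnf130 probes lie near -1 in each sex.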

How the data were processed

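RNA from 8 samples was hybridized to 1-colour Agilent whole mouse genome arrays. The authors deposited scanner files of intensity values (the file headers name Feature Extraction 9.5.3.1), in which the processed signal is background-subtracted. They also deposited a table of log2 values made in Subio Platform, with signals under 1 set to 1 and scaling to the 75th percentile. That table was used as an alternative here. Probe positions are those of the file headers' build, mm8, and symbols were updated through RefSeq names.

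Here log2 of the processed signal minus each array's 75th percentile was computed, control and outlier spots were left out, and spots of a probe were averaged. A probe was kept if both arrays of any group were well above background (18265 probes). One model over all 8 arrays, with a mean per group, was fitted in limma 3.58.1 (R 4.3.3). IP was compared with input in each sex, then the recoveries and the inputs between sexes, with Benjamini-Hochberg adjustment over all kept probes. An adjusted p under 0.05 was required, and for IP against input also 4-fold. The study selected probes by the same fold and a P under 0.05, with no test named. Where 1 side was not above background, folds are bounds against the lowest signal well above background. On simulated data with 200 probes changed 8-fold, 197 (XX) and 195 (XY) were recovered for IP against input, with 11 false calls each, and 131 for the difference between sexes, with 8. The number of arrays limits the precision.

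The members and lists were chosen with earlier results of these data known. The genes named were Trim6, in each sex up to 12 member genes that rose most and up to 8 that fell most among called probes above background on the 4 arrays (the probe of highest mean), every member called between the sexes, the 8 with the largest input difference each way, and the brightest genes of each list. The rule allowed up to 4 genes per member list and up to 3 per other list. This was reduced, after values were seen, to the first 2 and the first 1, where above background on all 4 arrays of that sex. Other genes and probes named in the text were chosen after their values were seen. Alternatives were normexp background correction, quantile normalization, 2 other scalings, the deposited table, other filters, a fit per pair of groups, a replicate block and leaving out each array.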

Additional observations from a re-analysis of the deposited data

Results flagged for a closer look

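The test of the difference between XX and XY in IP minus input was passed by 4 members, of which Rnf125 and Trim66 have no measured recovery in either sex. Rnf103 had a difference (XX minus XY) of 4.31 on the log2 scale, which was 3.31 to 5.30 when 1 array was left out and lost its call without the first XX IP array, after quantile normalization, under the 50th percentile and with no filter. Trim59 had a difference of 2.64 (2.07 to 3.21 when 1 array was left out). Among the fits that left out an array, its call held only without the second XY IP array. Of all 15 alternatives, 5 kept the call. Rnf125 had a fitted difference of 2.94 (2.50 to 3.37) and Trim66 one of -3.64 (-4.40 to -2.87). Both were above background on none of the IP arrays and on the inputs of 1 sex alone. They stayed called in 4 and 3 of the 8 fits that left out an array.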

How the results depend on the processing

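The numbers of called members depended on the processing, and where no cause is given the cause was not tested. Normexp correction, whose offset of 50 lies above the 75th percentile of the IP arrays (6.83 to 13.1) and so compresses them, left 2 enriched member probes in XX and 1 in XY, all above background on the 4 arrays. It gave 4 depleted in each sex (3.15%, against 11.4% of all tested probes in XX and 10.9% in XY). Of these 4, only 1 in each sex was also depleted in the main fit. Quantile normalization gave 14 depleted in XX (11%, against 18% of all tested probes) and 5 in XY (3.94%, against 13.6%). It gave 8 input differences higher in XX (6.3%, against 4.33%) and 4 higher in XY (3.15%, against 3.73%). Scaling to the 50th percentile gave 5 enriched (4 above background on all XX arrays) and 40 depleted in XX and 7 (7) and 45 in XY, with the shares given above. It gave 0 and 0 for the difference in recovery, against 0.0985% and 0.0493% of all tested probes. For the inputs it gave 6 higher in XX (4.72%, against 2.79%) and 3 higher in XY (2.36%, against 2.98%). Scaling to the 75th percentile of detected probes gave 4 depleted in XY (3.15%, against 12%) and 7 with higher recovery in XX (5.51%, against 1.92%). With no filter, which adds probes below background on every array, 116 were enriched in XX (52% of 223, against 56.8% of all 41101 probes) and 109 in XY (48.9%, against 54.4%). There were then 0 and 0 differences in recovery, against 0.112% and 0.0681%. In the inputs 5 were higher in XX (2.24%, against 1.34%) and 3 in XY (1.35%, against 1.54%). With only probes above background on all 8 arrays, 20 were enriched in XX (58.8%, against 24.7% of all such probes). None was depleted in either sex, against 8.87% in XX and 5.49% in XY. In recovery 0 and 0 differed, against 2.33% and 0.594%, and in the inputs 1 and 1 (2.94% each, against 3.07% and 1.71%). With only the 4 input arrays, 45 were higher in XX (35.4%, against 22.6%) and 19 in XY (15%, against 21.5%). The deposited table gave the main counts.

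Leaving out 1 array gave 33 to 42 enriched in XX (21 to 31 of those above background on all XX arrays) and 3 to 6 depleted, 27 to 37 in XY (19 to 25) and 0 to 6 depleted, 0 to 10 and 0 to 6 differences in recovery higher in XX and in XY, and 4 to 20 and 3 to 12 in the inputs. The 6 depleted in XY and the 10 and 6 differences in recovery came without the second XY IP array, the 0 depleted without the first. Each fit without 1 array leaves 1 array in a group and tests its own set of probes. The most enriched probes in either sex came without the second XX input, where 149 member probes were tested in place of 127. In each such fit and sex the members' share was above that of all tested probes for enriched, and below it for depleted. For differences in recovery and in the inputs it was above in some fits and below in others. The shared replicate numbers are not stated to mark shared lots. Deviations of same-numbered samples correlated at 0.03 in XX and 0.14 in XY over 4206 probes. A replicate block gave 34 enriched in XX and 27 in XY, as without it, and 9 and 3 differences in recovery.

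Of the values of genes named by the rule, no called one changed sign. Outside it, Rnf12, called in XY, was -0.054 there under normexp, and a Trim63 probe called in XX and an Rnf20 probe called in XY, both below background on the IP arrays, changed sign after quantile normalization. In all, 52 of 127 member values in XX (40.9%, against 37.8% of all tested probes) and 46 in XY (36.2%, against 37.4%) changed sign under the 50th percentile, which shifts every probe alike, and 27 (21.3%, against 20.7%) and 35 (27.6%, against 22.5%) under normexp. Uncalled values of the rule changed sign under normexp and under the 50th percentile for Rnf14 in XX -1.13 and -1.18, Rnf19a in XX -0.97 and -1.49, Rnf146 in XX -0.18 and -0.083 and in XY -1.47 and -1.66, Trim32 in XX -0.36 and -1.12 and in XY -0.79 and -1.22, Rbx1 in XX -0.73 and -0.51, Trip12 in XX -1.62 and -1.61 and in XY -1.75 and -1.40, Rnf4 in XY -0.42 and -0.49, and Rnf34 in XY -0.71 and -0.58. Rnf4 (A_52_P189567) in XX was -0.71 and -1.69. Trip12 in XX was -0.16 after quantile normalization and -0.032 under the 75th percentile of detected probes, where Rnf146 in XY was -0.12. With 1 XY IP array left out, Trim25 in XY ranged from -1.56 (without the second) to 0.093 (without the first), Rnf14 in XY from -0.64 to 0.23 likewise, Rnf146 in XY from -0.086 (without the second) to 0.50 and the difference in recovery of Trim6 (A_52_P199024) from -0.75 (without the first) to 0.12.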
